A study of Mus musculus with 24 samples.

Results

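Malat1, Neat1, Meg3, Rian, Miat and Snhg11 are long noncoding RNAs, transcripts that work as RNA and are not translated into protein. They were found by gene symbol in the annotation of the array platform, and every probe set that carried one of the 6 symbols was kept. A probe set is a group of short probes on the array that together measure one transcript. The 6 genes had 28 of the 45037 probe sets tested, with 7 for Malat1, 11 for Meg3, 4 for Rian and 2 each for Neat1, Miat and Snhg11. None of the 932 probe sets that carry several symbols includes any of the 6. The genes were chosen on these same values, with the difference between stressed and control arrays already in view. That difference is therefore given as a description, with no p-value for any of the 28. Counts of the 28 past limma's threshold are printed beside the share of all probe sets past it and support nothing. Tests of the 28 were kept for brain areas averaged over both treatments, a contrast that the difference between CMS and control does not enter. Other gene lists were chosen with earlier results known as well. The limma adjusted p-values printed for their genes carry that choice, so they are descriptions and support nothing.

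The data were 24 expression arrays of mouse brain, 3 for each of 8 groups. Chronic mild stress (CMS), a rodent model of depression in which mild stressors come in an unpredictable order, was applied on 6 days a week for 4 weeks, and 4 brain areas (amygdala, hippocampus, prefrontal cortex, cerebral cortex) of CMS mice and of unstressed control mice went onto arrays. All were wild-type C57BL/6 males that were 6 to 8 weeks old by their labels, and none carried a transgene or received a drug. The study set out to find which transcripts the stress alters in each area. As a model it is limited to 1 strain and to males, and every stressed mouse went through the same order of stressors. The sources speak both of independent mice and of pooled RNA, so it is not settled that each array is 1 mouse, and p-values measure only the spread between these arrays. Whole tissue was used, so more RNA per cell and more cells of a kind cannot be told apart.

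Values were deposited on the log2 scale, and each probe set has a median of 0 over the 24 arrays. A value of 1 therefore stands for 2-fold above that median. The values rank arrays within a probe set, and say nothing of which gene is the more abundant. A difference was called when its p-value in limma, adjusted over all probe sets, was under 0.05. A stricter call also asked for a change of over 2-fold.

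Malat1 and Neat1 are neighbours on mouse chromosome 19 and both stay in the nucleus. Malat1 gathers in nuclear speckles, where splicing factors are stored, and Neat1 is the scaffold around which paraspeckles form. Meg3 and Rian lie in the imprinted Dlk1-Dio3 region of chromosome 12, where the maternal copy makes noncoding RNAs that are hosts to many microRNAs and small nucleolar RNAs and the paternal copy makes the protein-coding genes. Miat, also called Gomafu, is a nuclear RNA of neurons that binds splicing factors. Snhg11 is a host gene of small nucleolar RNAs that is expressed in brain.

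In GRCm38.p6, the build of the RefSeq tables used here, Malat1 spans chr19:5795690-5802672 and Neat1 spans chr19:5824708-5845480, with 22.0 kb between them. Meg3 spans chr12:109540996-109571729 and Rian spans chr12:109603945-109661716, with 32.2 kb between them. Miat is at chr5:112213228-112228948 and Snhg11 at chr2:158375713-158386474. All 6 are annotated as lncRNA.

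The promoters of Malat1 and Meg3 are shown because all probe sets of these 2 genes were higher in the CMS hippocampus and because their mean values moved together over the arrays. All probe sets of Miat and Snhg11, 2 each, were higher there as well. RefSeq windows of 300 bases, 250 before and 50 after the start, were matched for Malat1, Meg3, Rian, Miat and Snhg11. Capitals mark the letters TGACG (the short form of a cAMP response element), TGACGTCA (its full form, which holds the short form on both strands), TATAAA and CCAAT, searched on both strands. The Malat1 window is chr19:5802623-5802922 on the minus strand and the Meg3 window, at the first of its 2 annotated starts, is chr12:109540746-109541045 on the plus strand.
Malat1: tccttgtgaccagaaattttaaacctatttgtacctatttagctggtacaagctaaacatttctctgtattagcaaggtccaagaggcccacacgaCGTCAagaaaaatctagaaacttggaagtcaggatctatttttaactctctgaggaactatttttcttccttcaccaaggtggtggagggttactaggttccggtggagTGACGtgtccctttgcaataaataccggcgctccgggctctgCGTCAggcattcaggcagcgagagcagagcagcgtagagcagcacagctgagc
Meg3: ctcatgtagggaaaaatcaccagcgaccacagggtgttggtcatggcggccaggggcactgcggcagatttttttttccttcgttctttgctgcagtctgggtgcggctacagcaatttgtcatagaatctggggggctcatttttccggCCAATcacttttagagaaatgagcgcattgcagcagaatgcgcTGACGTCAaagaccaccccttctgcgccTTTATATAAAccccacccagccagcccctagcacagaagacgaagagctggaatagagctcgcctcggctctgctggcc
Malat1 had the short form beginning 154, 45 and 3 bases before the start. Meg3 had the full element beginning 57 bases before the start, the TATAAA letters beginning 29 and 25 bases before it on opposite strands, and CCAAT beginning 100 bases before it. Of 32851 mouse promoter windows of this length, 20.8% hold the short form, 1.79% the full element, 13.6% TATAAA and 37.4% CCAAT. None of these 4 motifs was found in the windows of Rian, Miat, Snhg11 or the other Meg3 start. A match of letters is a description and not a binding site.

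Within the spans of Meg3 and Rian lie 3 and 6 mature microRNAs of the RefSeq table. Of these, 5 are shown as small RNAs that the genomic spans of the 2 genes hold. Their own levels are not measured by the Meg3 and Rian probe sets. Capitals mark the seed, bases 2 to 8, which pairs with target mRNAs, and no seed was shared among the 5.
mmu-miR-1906: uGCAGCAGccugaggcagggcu
mmu-miR-770-5p: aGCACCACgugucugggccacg
mmu-miR-770-3p: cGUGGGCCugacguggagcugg
mmu-miR-341-3p: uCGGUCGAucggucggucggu
mmu-miR-370-3p: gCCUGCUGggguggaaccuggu
The first 3 lie in the Meg3 span, with miR-770-5p at chr12:109563710-109563731, and the other two in the Rian span, with miR-370-3p at chr12:109618305-109618326, all on the plus strand.

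In the hippocampus nearly all probe sets of these RNAs were higher in CMS mice. There 26 of the 28 lay above control, against 27.3% of all probe sets that were higher. The 3 CMS arrays lay wholly above the 3 control arrays for 25 of them and wholly below for 1, where 8.67% and 51.9% of all probe sets did so. With an adjusted p under 0.05, 23 were called higher and 0 lower by limma, beside 5.68% and 35.0% of all probe sets. At an unadjusted p under 0.05 these were 25 and 0, and a test of each probe set by its own variance gave 22 and 0 after adjustment. Malat1 had 7 of 7 called higher, Meg3 11 of 11, Snhg11 2 of 2, Rian 2 of 4, Miat 1 of 2 and Neat1 0 of 2. The median difference over the 28 was 0.52, against -0.05 over all probe sets. Nothing is read from these counts, since the same contrast was known when the genes were picked. Of all probe sets called in this area, 2557 were higher and 15757 lower, which became 2207 and 3215 after quantile normalization and 1858 and 3234 after median centring, and 26 of the 28 were higher under both.

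The amygdala followed with 21 of 28 probe sets higher in CMS mice and 7 lower, where 68.5% of all probe sets were higher. The groups did not overlap for 16 of the 21 and 5 of the 7, beside 46.4% and 12.7% of all probe sets. Calls were made for 10 as higher and 3 as lower, beside 11.4% and 6.88% of all probe sets, and the median difference was 0.15, against 0.03 over all probe sets. Without control array 2 the 10 became 6. All called probe sets split into 5152 higher and 3097 lower, which became 2949 and 2993 after quantile normalization and 2989 and 3126 after median centring. Of the 28, 19 and 17 were then higher.

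In the cerebral cortex the members divided, with 13 of 28 higher and 15 lower in CMS mice and a median difference of -0.06, against -0.03 over all probe sets, of which 31.6% were higher. The groups did not overlap for 7 of the 13 and 11 of the 15, beside 12.6% and 42.9% of all probe sets. Calls were 6 higher and 9 lower, beside 5.49% and 3.67% of all probe sets. The 9 became 4 without CMS array 1, CMS array 2 or control array 1, and 5 without control array 2.

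The prefrontal cortex was the area where most probe sets were lower, 21 of 28 with 7 higher, although 67.8% of all probe sets there were higher. The 3 CMS arrays lay wholly above the control arrays for 5 and wholly below for 13 of the 28, where 39.6% and 9.80% of all probe sets did so. Limma called 0 higher and 4 lower, beside 2.78% and 2.48% of all probe sets. At an unadjusted p under 0.05 these were 3 and 9, and the test of each probe set by its own variance gave 0 and 0 after adjustment. The 4 were Neat1 1428083_at and Meg3 1428764_at, 1429256_at and 1436713_s_at, and leaving out any 1 of the 6 arrays left 0 or 1.

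Few of the differences were over 2-fold. In the hippocampus 3 probe sets of Malat1 were called with that size, beside 0.651% of all probe sets in either direction. So were 2 of Malat1 and 1 of Meg3 in the cerebral cortex, beside 1.12%, and in the amygdala 1 of Malat1 (higher) and 1 of Rian (lower), beside 1.19%. None was in the prefrontal cortex, beside 0.209%.

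**Figure D1:**
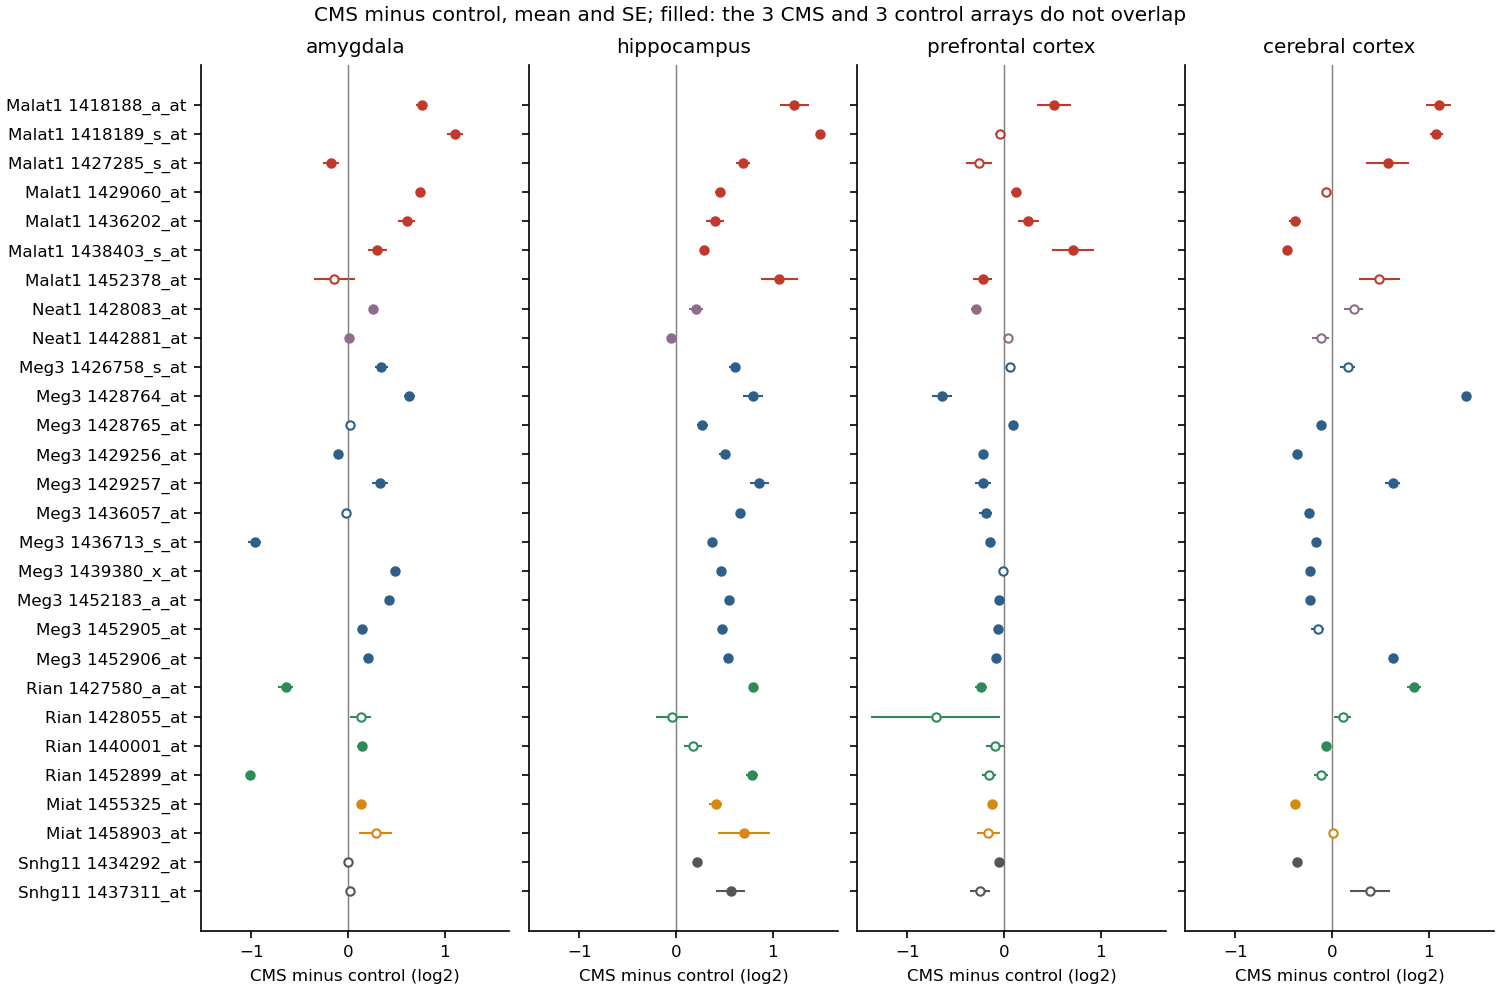
CMS minus control on the log2 scale for the 28 probe sets (rows, coloured by gene) in 4 areas (panels), with the limma standard error as bars and filled points where the 3 CMS and 3 control arrays do not overlap. In the hippocampus 26 of 28 points lie right of 0, and in the prefrontal cortex 21 of 28 lie left of it.

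Markers of other tissues also differed between CMS and control arrays. Their lists were chosen with earlier results known. Several of the thalamus, choroid plexus and neutrophil markers are among the largest changes that the paper lists, so these counts support nothing. Of all genes, limma called 10.5% higher and 8.84% lower in the amygdala and 4.66% and 24.9% in the hippocampus. These shares were 4.45% and 3.92% in the prefrontal cortex and 5.95% and 3.99% in the cerebral cortex. In the hippocampus 8 of 9 markers of thalamus and habenula were called higher in CMS mice (median difference 1.22), and their mean level lay between 0.65 and 0.72 in CMS arrays, against -0.60 to -0.56 in control arrays. In the cerebral cortex 7 of 7 striatum markers were higher (median 1.34, mean level -0.83 to -0.76 in CMS arrays, against -2.29 to -2.12 in control arrays) and 9 of 9 choroid plexus markers were lower (median -3.10, mean level -1.56 to -1.48, against 1.77 to 1.85). In the amygdala 6 of 7 oligodendrocyte markers were lower (median -0.57, mean level -0.50 to -0.43 in CMS arrays, against 0.01 to 0.08 in control arrays). Markers of hypothalamus also fell there, 4 of 9 with 2 of them over 2-fold (mean level 0.81 to 1.02 in CMS arrays, against 1.80 to 2.14 in control arrays), and 6 of 7 striatum markers were higher (mean level 1.45 to 1.51, against 1.15 to 1.16). In the prefrontal cortex 7 of 8 blood and neutrophil markers were higher (median 3.56, mean level 3.97 to 4.09, against 0.80 to 0.91). Of choroid plexus markers 5 of 9 were lower there (mean level -1.05 to -0.95, against 0.14 to 0.36). Hippocampal markers in the amygdala had 4 of 8 lower, 3 of them over 2-fold, and 1 higher. Endothelial markers had 4 of 7 higher in the amygdala (mean level 0.28 to 0.46, against -0.43 to -0.30). The hippocampus also had 4 of 7 of them higher (-0.29 to -0.24, against -0.56 to -0.49). There were 3 higher in the prefrontal cortex, and 2 higher and 1 lower in the cerebral cortex. Of oligodendrocyte markers 5 of 7 were higher in the cerebral cortex and 4 of 7 lower in the prefrontal cortex. Prefrontal striatum markers had 4 of 7 lower and 1 higher. Of 10 neuron markers 4 were called higher and 1 lower in the amygdala, where their mean level was 0.02 to 0.11 in CMS arrays, against -0.04 to -0.02 in control arrays. The other areas had 1 or 2 called in each direction, and the medians over the 10 were between -0.07 and 0.02. The Actb control probe sets were higher in CMS arrays in every area, by 0.82, 0.17, 0.21 and 1.29 in amygdala, hippocampus, prefrontal cortex and cerebral cortex. Their 5′ minus 3′ difference, a sign of RNA quality, was different in CMS arrays by -0.095 in the amygdala and by 0.05, 0.20 and 0.60 in the other three areas, each without overlap. For Gapdh the same measure differed by -0.13 in amygdala, 0.06 in hippocampus and 0.16 in cerebral cortex without overlap. Spike-in controls differed between CMS and control arrays as well, each without overlap. In amygdala, hippocampus, prefrontal cortex and cerebral cortex the poly-A spike-ins differed by 0.13, -0.09, 0.58 and -0.44. The hybridisation spike-ins differed by 0.80, -0.37, 0.31 and -0.15 in the same order. Treatment and processing of the arrays therefore cannot be told apart within an area. The part of these shifts in the values of the 6 noncoding RNAs was not tested. Hippocampal markers were highest in the hippocampus, with a mean of 3.30 in CMS arrays and 3.40 in control arrays, and cortical markers were highest in the cerebral cortex, at 0.48 and 0.44. Amygdala markers were highest in the amygdala, at 0.53 and 0.70, and prefrontal cortex stood next to cerebral cortex for the cortical markers, at 0.16 and 0.17. Markers of areas not sampled were high in places too. Those of striatum were highest in the amygdala (1.49 in CMS and 1.16 in control arrays), then in the prefrontal cortex (0.75 and 0.92). Hypothalamus markers had the same order, at 0.95 and 1.99 in the amygdala and 0.51 and 0.64 in the prefrontal cortex.

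Malat1 was higher in CMS mice in each area when its 7 probe sets were averaged. The mean of the 7 was 0.75, 0.79 and 0.73 in CMS arrays, against -0.036, -0.054 and -0.040 in control arrays in the hippocampus, a difference of 0.80 (SE 0.020). In the amygdala it was -0.20, -0.27 and -0.27 in CMS arrays, against -0.75, -0.63 and -0.74 in control arrays, and the difference was 0.46 (SE 0.043). Its cerebral cortex difference was 0.33 (SE 0.024) and its prefrontal difference 0.15 (SE 0.039), and in no area did the CMS and control arrays overlap.

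The single Malat1 probe sets did not all follow that mean. Probe set 1418189_s_at had 1.74, 1.83 and 1.73 in CMS arrays, against 0.25, 0.32 and 0.26 in control arrays of the hippocampus, a difference of 1.49 (SE 0.037). Its amygdala values were 0.24, 0.096 and 0.15 in CMS arrays, against -0.94, -1.09 and -0.80 in control arrays, a difference of 1.11 (SE 0.086). Cerebral cortex gave 0.90, 0.91 and 0.87 in CMS arrays, against -0.096, -0.13 and -0.33 in control arrays, a difference of 1.08 (SE 0.067). These are the 3 areas where it was over 2-fold higher, and its CMS and control arrays did not overlap in any of them. Prefrontal values were -0.50, -0.55 and -0.48 in CMS arrays, against -0.47, -0.56 and -0.36 in control arrays, and the groups overlapped there with a difference of -0.042 (SE 0.055).

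A similar order of areas was seen for 1418188_a_at. It gave 1.13, 1.08 and 0.91 in CMS arrays, against -0.36, 0.11 and -0.30 in control arrays in the hippocampus, a difference of 1.22 (SE 0.15). Cerebral cortex values were 0.26, -0.11 and 0.11 in CMS arrays, against -0.84, -1.20 and -0.99 in control arrays, a difference of 1.10 (SE 0.13). The CMS arrays were above the control arrays in all 4 areas for this probe set, by 0.76 (SE 0.058) in the amygdala and 0.52 (SE 0.17) in the prefrontal cortex.

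The third Malat1 probe set with an over 2-fold difference was 1452378_at, and only in the hippocampus did it pass that size. Its hippocampal values were 1.36, 1.30 and 1.34 in CMS arrays, against 0.69, 0.099 and 0.00078 in control arrays, a difference of 1.07 (SE 0.19), with the control arrays far more scattered than the CMS arrays. Its prefrontal CMS arrays were the lower ones, at -0.23, -0.12 and -0.21 in CMS arrays, against -0.028, -0.11 and 0.24 in control arrays.

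For 1438403_s_at the sign of the difference turned with the area, a contrast that was not tested. Prefrontal values were 2.55, 1.81 and 1.89 in CMS arrays, against 1.45, 1.43 and 1.22 in control arrays, a difference of 0.71 (SE 0.22), and CMS array 1 was the highest. Cerebral cortex values were -0.81, -0.92 and -0.91 in CMS arrays, against -0.46, -0.42 and -0.37 in control arrays, a difference of -0.47 (SE 0.042). The CMS arrays thus lay above the control arrays in one cortical area and below them in the other.

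The other three Malat1 probe sets, 1427285_s_at, 1429060_at and 1436202_at, were higher in the CMS hippocampus by 0.40 to 0.70 without overlap. In the amygdala 1429060_at had 0.17, 0.11 and 0.12 in CMS arrays, against -0.60, -0.59 and -0.65 in control arrays, and 1436202_at was higher there by 0.61 (SE 0.087). The same probe set was lower in the cerebral cortex, at 0.17, 0.065 and 0.22 in CMS arrays, against 0.62, 0.52 and 0.47 in control arrays. Suffixes on these names carry a warning given by the array's maker: _s_at marks probes shared with other transcripts, _x_at probes that may cross-hybridise and _a_at probes shared by forms of one gene. Over the 24 arrays the 21 pairs of Malat1 probe sets had correlations from -0.21 to 0.84 with a median of 0.19, so they are not interchangeable readings of one level.

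**Figure D2:**
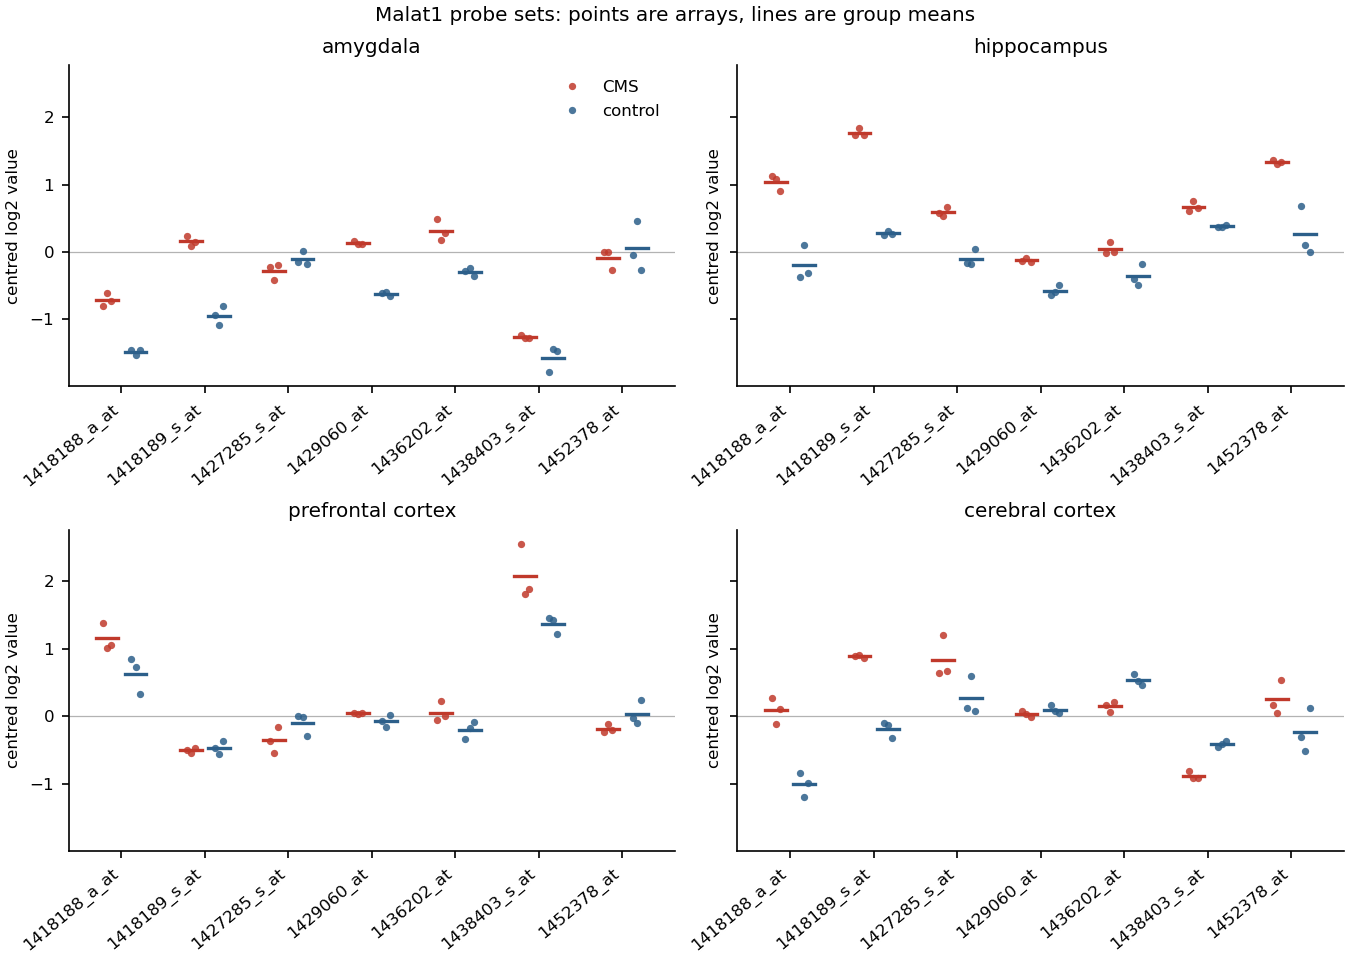
Centred log2 values of the 7 Malat1 probe sets (x axis) in 4 areas (panels), with CMS arrays in red to the left of control arrays in blue, 1 point per array and a line at each group mean. All 7 are higher in CMS arrays of the hippocampus, while 1438403_s_at is higher in CMS arrays of the prefrontal cortex and lower in those of the cerebral cortex.

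Neat1, the neighbour of Malat1, differed by much less. Probe set 1428083_at had 0.23, 0.21 and 0.19 in CMS arrays, against -0.0095, -0.0069 and -0.14 in control arrays in the amygdala, a difference of 0.26 (SE 0.041). The prefrontal order was the opposite, with -0.43, -0.29 and -0.32 in CMS arrays, against -0.13, 0.0069 and -0.041 in control arrays and a difference of -0.29 (SE 0.051). The hippocampal difference was 0.21 (SE 0.073), and in the cerebral cortex, at 0.22 (SE 0.096), the groups overlapped. The other Neat1 probe set, 1442881_at, lay between -0.11 and 0.28 on all 24 arrays and its differences were between -0.12 and 0.04. The 2 probe sets did not follow each other (r = -0.13 over 24 arrays).

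Proteins of paraspeckles, which assemble on Neat1, were measured for 13 of 14 listed genes. This list and the gene lists below were chosen with earlier results known, so the p-values of their genes are descriptions. Of these 2 were higher and 2 lower in the CMS hippocampus by limma on gene means, beside 4.66% and 24.9% of all genes. Nudt21, a subunit of a cleavage factor of pre-mRNA, fell there, at -1.29 ± 0.04 in CMS arrays and -0.65 ± 0.04 in control arrays (SD, n = 3 each), a difference of -0.64 with a limma adjusted p of 0.0039. Taf15, an RNA-binding protein of the FET family, rose by 0.41 in the same area (limma adjusted p = 0.011).

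In the cerebral cortex 3 paraspeckle genes were higher and 0 lower, beside 5.95% and 3.99% of all genes. Nudt21 rose there, at 0.99 ± 0.02 in CMS arrays and 0.37 ± 0.06 in control arrays (SD, n = 3 each), a difference of 0.62 with a limma adjusted p of 0.0015. Cpsf6, its partner in the cleavage factor, rose by 0.26 (limma adjusted p = 0.019). In the amygdala 2 were higher and 1 lower, beside 10.5% and 8.84% of all genes, among them Sfpq, a core paraspeckle protein, which rose by 0.21, and the RNA-binding protein Tardbp, which fell by 0.21 (limma adjusted p = 0.046 and 0.020). In the prefrontal cortex 2 were higher and 0 lower, beside 4.45% and 3.92%, and these were Srsf10 (0.30) and Nudt21 (0.21). At an unadjusted limma p under 0.05 there were 5 higher and 1 lower in the prefrontal cortex, while the cerebral cortex had 5 higher and 3 lower. The medians over the list ran from -0.04 to 0.10, and over all genes from -0.05 to 0.02.

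Nuclear speckle and SR proteins, the company of Malat1, were measured for 21 of 23 listed genes. In the amygdala 5 were called higher and 5 lower, beside 10.5% and 8.84% of all genes. The hippocampus had 6 and 2 (4.66% and 24.9%), the prefrontal cortex 8 and 3 (4.45% and 3.92%) and the cerebral cortex 7 and 0 (5.95% and 3.99%), the last with 9 and 1 at an unadjusted limma p under 0.05. None was over 2-fold. Srrm2, a scaffold protein of the speckle, rose by 0.53 in the amygdala (-0.34 ± 0.03 in CMS arrays and -0.87 ± 0.07 in control arrays, SD, n = 3 each, limma adjusted p = 0.0032) and by 0.43 in the cerebral cortex (limma adjusted p = 0.022). Clk4, a kinase of SR proteins, fell by 0.53 in the amygdala (limma adjusted p = 0.0061). Srsf11 rose by 0.36 and the kinase Clk1 fell by 0.30 in the hippocampus, and Luc7l2 rose by 0.40 in the cerebral cortex. Among prefrontal calls the 2 largest changes were of splice site factors, Sf1 by -0.40 and U2af1 by -0.38. The medians over the list were -0.09, 0.05, 0.09 and 0.08 in amygdala, hippocampus, prefrontal cortex and cerebral cortex.

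Meg3 had the most probe sets and the most even pattern in the hippocampus, where all 11 were higher in CMS mice without overlap, by 0.27 to 0.86. The mean over the 11 was 0.29, 0.38 and 0.33 in CMS arrays, against -0.23, -0.26 and -0.17 in control arrays, a difference of 0.55 (SE 0.035). Highest among them was 1429257_at, with 0.62, 0.77 and 0.65 in CMS arrays, against -0.097, -0.37 and -0.074 in control arrays and a difference of 0.86 (SE 0.096). Next came 1428764_at, with 1.06, 1.15 and 1.08 in CMS arrays, against 0.20, 0.19 and 0.52 in control arrays and a difference of 0.79 (SE 0.10). Probe set 1436057_at showed how tight the values could be, with 0.057, 0.15 and 0.095 in CMS arrays, against -0.51, -0.55 and -0.62 in control arrays.

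Outside the hippocampus the Meg3 probe sets parted. The difference of 1428764_at in the cerebral cortex was the one Meg3 difference over 2-fold, with 0.83, 0.94 and 0.96 in CMS arrays, against -0.45, -0.46 and -0.49 in control arrays and 1.38 (SE 0.041). Also higher there without overlap were 1429257_at by 0.63 (SE 0.076) and 1452906_at by 0.63 (SE 0.039). The other way went 1429256_at, which had -0.18, -0.15 and -0.16 in CMS arrays, against 0.19, 0.25 and 0.17 in control arrays, and 6 probe sets in all lay lower there without overlap. The mean of the 11 was only slightly higher in the CMS cerebral cortex, by 0.12 (SE 0.035).

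In the amygdala 8 Meg3 probe sets were higher. The clearest were 1428764_at, by 0.63 (SE 0.057), and 1439380_x_at, which had 0.28, 0.26 and 0.22 in CMS arrays, against -0.24, -0.23 and -0.24 in control arrays. Against them stood 1436713_s_at, with -0.57, -0.69 and -0.78 in CMS arrays, against 0.38, 0.26 and 0.23 in control arrays and a difference of -0.96 (SE 0.069). It is the largest amygdala difference of any Meg3 probe set and runs against the mean of the 11, which was 0.14 (SE 0.026) higher in CMS mice.

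In the prefrontal cortex 9 of the 11 were lower in CMS mice. Here too 1428764_at moved most, with -0.32, -0.35 and -0.19 in CMS arrays, against 0.34, 0.19 and 0.54 in control arrays and a difference of -0.64 (SE 0.10). The others were within 0.25 of 0, such as 1429256_at with -0.071, -0.086 and -0.069 in CMS arrays, against 0.095, 0.16 and 0.17 in control arrays. Over the 24 arrays the 55 pairs of Meg3 probe sets had correlations from -0.47 to 0.89 with a median of 0.11.

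**Figure D3:**
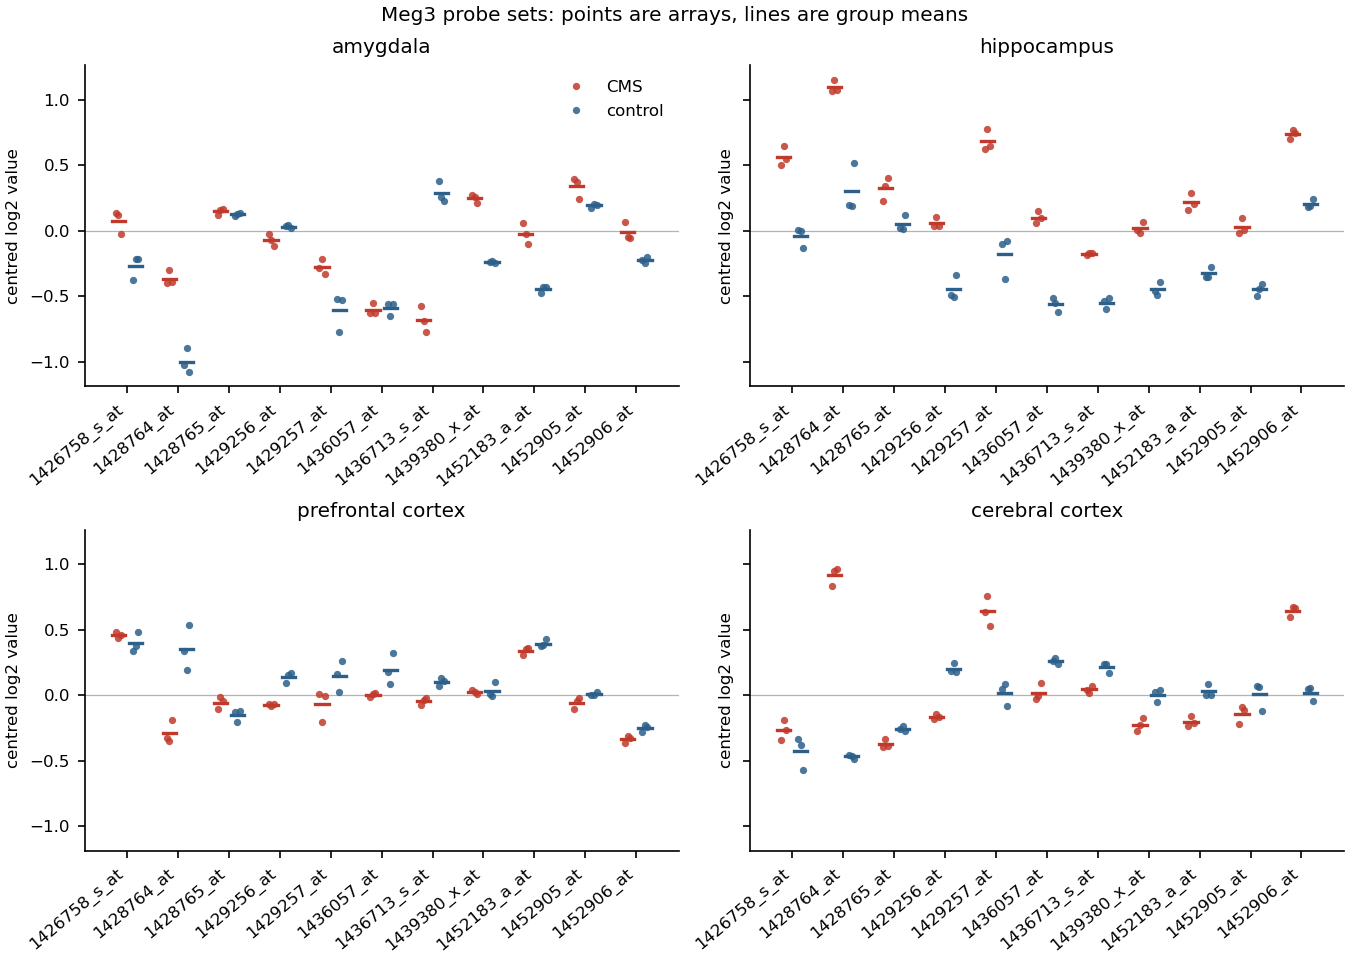
Centred log2 values of the 11 Meg3 probe sets (x axis) in 4 areas (panels), CMS arrays in red to the left of control arrays in blue, 1 point per array with lines at group means. In the hippocampus each CMS group lies above its control group, whereas 1428764_at lies below in the prefrontal cortex and above in the cerebral cortex, and 1436713_s_at lies below in the amygdala.

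Rian, the maternal RNA downstream of Meg3, was higher in CMS mice in the hippocampus and lower in the amygdala. Its probe set 1452899_at had 0.35, 0.25 and 0.30 in CMS arrays, against 1.29, 1.37 and 1.27 in control arrays in the amygdala, a difference of -1.01 (SE 0.040). The hippocampal values were 0.95, 1.05 and 1.09 in CMS arrays, against 0.35, 0.18 and 0.21 in control arrays, a difference of 0.78 (SE 0.061). In both cortical areas the groups of this probe set overlapped, at -0.15 (SE 0.073) in the prefrontal and -0.11 (SE 0.072) in the cerebral cortex.

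Probe set 1427580_a_at of Rian gave the same signs in the amygdala and hippocampus. Its amygdala values were 0.18, -0.067 and 0.088 in CMS arrays, against 0.79, 0.72 and 0.63 in control arrays, and its hippocampal values were 0.79, 0.77 and 0.72 in CMS arrays, against -0.017, -0.12 and 0.017 in control arrays. Its cerebral cortex level was higher too, with 0.37, 0.15 and 0.30 in CMS arrays, against -0.47, -0.60 and -0.64 in control arrays and a difference of 0.85 (SE 0.075), where 1452899_at was not. The other two Rian probe sets differed little. Of these, 1440001_at was between -0.17 and 0.34 on all arrays, and 1428055_at had prefrontal values so scattered (0.28, 0.50 and 1.84 in CMS arrays, against 0.44, 2.24 and 2.06 in control arrays) that its difference of -0.71 (SE 0.67) is not larger than the spread between replicates.

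Other genes of the Dlk1-Dio3 region were read beside them. Dlk1, the paternally expressed gene at one end of the region, was measured by 2 probe sets and rose in the hippocampus, at 0.18 ± 0.18 in CMS arrays and -0.34 ± 0.14 in control arrays (SD, n = 3 each), a difference of 0.52 with a limma adjusted p of 0.036. Dlk1 fell in the prefrontal cortex, to -0.20 ± 0.25 in CMS arrays, against 0.69 ± 0.11 in control arrays (SD, n = 3 each), a difference of -0.89 with a limma adjusted p of 0.023. In the amygdala (-0.08) and cerebral cortex (-0.09) its arrays overlapped. Mirg, the maternal RNA after Rian and host to 19 mature microRNAs of the table, rose in the hippocampus by 0.38 (0.41 ± 0.06 in CMS arrays and 0.02 ± 0.14 in control arrays, SD, n = 3 each, limma adjusted p = 0.029) and differed by -0.02 to 0.06 elsewhere. Rtl1 and Dio3 had no probe set under their symbols. Dlk1, from the paternal copy, and Mirg, from the maternal copy, were thus both higher in the CMS hippocampus.

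Miat, the neuronal RNA also called Gomafu, was higher in the CMS hippocampus on both probe sets without overlap. For 1455325_at the values were 0.58, 0.69 and 0.49 in CMS arrays, against 0.15, 0.12 and 0.27 in control arrays, a difference of 0.41 (SE 0.067). The same probe set was lower in the cerebral cortex, with 0.15, 0.25 and 0.26 in CMS arrays, against 0.65, 0.61 and 0.57 in control arrays and a difference of -0.39 (SE 0.041). The 2 areas thus had opposite signs, each without overlap. For 1458903_at the hippocampal values were 0.94, 1.13 and 0.16 in CMS arrays, against 0.035, 0.032 and 0.038 in control arrays and no call was made. Its cerebral cortex values did not separate the groups, at a difference of 0.013 (SE 0.040). The 2 probe sets had r = 0.61 over the 24 arrays.

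Snhg11 had the same signs as Miat in hippocampus and cerebral cortex on its steadier probe set. That was 1434292_at, with -0.28, -0.16 and -0.16 in CMS arrays, against -0.43, -0.44 and -0.39 in control arrays in the hippocampus, a difference of 0.22 (SE 0.038). It was lower in the cerebral cortex, with -0.12, -0.10 and -0.059 in CMS arrays, against 0.25, 0.28 and 0.29 in control arrays, a difference of -0.36 (SE 0.026). Its other probe set, 1437311_at, was higher in the CMS hippocampus, at 0.47, 0.092 and 0.46 in CMS arrays, against -0.34, -0.34 and 0.0043 in control arrays, and overlapped in the other three areas. In the amygdala their differences were 0.0047 (SE 0.033) and 0.017 (SE 0.019). The 2 probe sets were nearly unrelated over the arrays (r = 0.030).

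**Figure D4:**
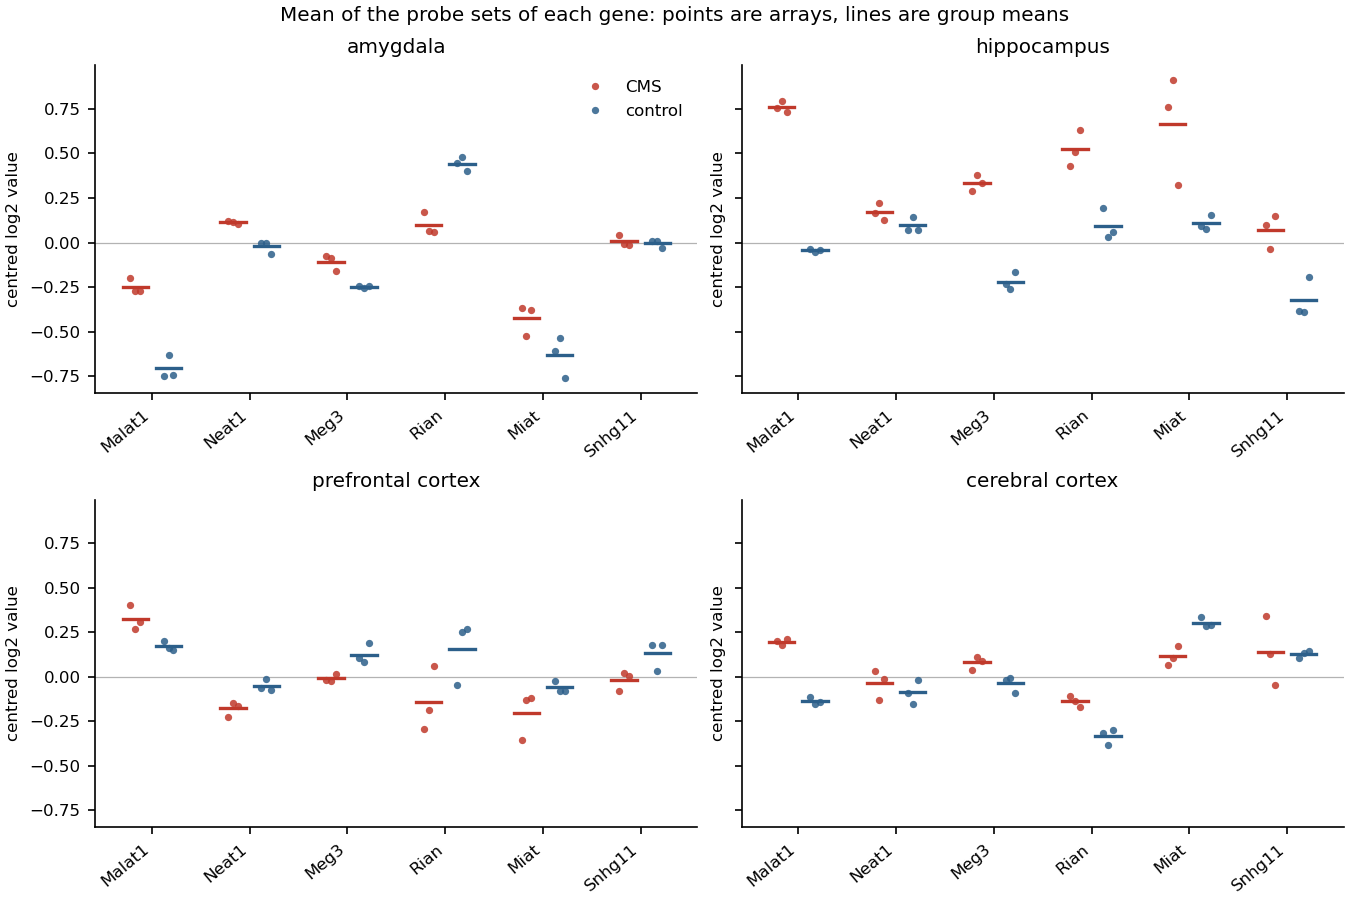
Mean of all probe sets of each of the 6 genes (x axis, centred log2) in 4 areas (panels), CMS arrays in red to the left of control arrays in blue, 1 point per array with lines at group means. In the hippocampus all 6 CMS means are above the control means, and in the amygdala Malat1 is higher and Rian lower in CMS arrays.

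A list of 49 other noncoding RNAs, of which 36 were measured, was read beside the 6. In the hippocampus 3 of them were called higher and 8 lower, beside 4.66% and 24.9% of all genes, with a median difference of -0.04 against -0.05 over all genes. Dlx6os1, the antisense RNA of the Dlx6 locus of GABA neurons, fell by 0.87 (-1.41 ± 0.22 in CMS arrays and -0.54 ± 0.13 in control arrays, SD, n = 3 each, limma adjusted p = 0.017). Mir124a-1hg, a host gene of the neuronal microRNA miR-124, rose by 0.49 (0.34 ± 0.07 and -0.15 ± 0.10, limma adjusted p = 0.013). Mirg, given above, was another of the 3.

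In the amygdala 4 of these 36 were higher and 3 lower, beside 10.5% and 8.84% of all genes. Mir124a-1hg rose by 0.67 (-0.38 ± 0.06 in CMS arrays and -1.05 ± 0.05 in control arrays, SD, n = 3 each, limma adjusted p = 0.0021) and Sox2ot, which overlaps the stem cell gene Sox2, fell by 0.62 (limma adjusted p = 0.0078). In the prefrontal cortex 6 were higher and 1 lower (4.45% and 3.92%), with Gas5, a host gene of small nucleolar RNAs, which rose by 0.46 (limma adjusted p = 0.0088), and Sox2ot, which fell by 0.39 (limma adjusted p = 0.0029). In the cerebral cortex 7 were higher and 4 lower (5.95% and 3.99%). Oip5os1 rose there by 0.50 (limma adjusted p = 0.0057), whereas the difference of Dlx6os1, 0.48, was not past the threshold (limma adjusted p = 0.053). None of the 36 was over 2-fold in any area.

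The areas were then compared with each other. Each area was set against the mean of the other three over all 24 arrays, with the CMS and control means of an area averaged first, and a call asked for a limma adjusted p under 0.05 and over 2-fold. The same mice may have given several areas, which the labels do not settle. Of the 28, 3 were called lower in the amygdala, beside 3.02% of all probe sets in either direction. The prefrontal cortex had 3 higher and 1 lower (2.01%), the hippocampus 1 higher (4.64%) and the cerebral cortex 1 lower (2.52%). Poly-A spike-ins, added to the RNA before labelling, were at -4.11 and -4.02 in CMS and control hippocampus and between -0.55 and 0.50 in the other areas, so that for the hippocampus area and processing cannot be told apart.

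Malat1 gave 5 of the 9 calls. Probe set 1438403_s_at was higher in the prefrontal cortex than in the others by 2.24 (SE 0.077, limma adjusted p = 1.1e-13), and this was 2.57 in CMS arrays and 1.90 in control arrays. It was lower in the amygdala, at -1.95 relative to the others (SE 0.077, limma adjusted p = 3.9e-13), with -1.89 in CMS arrays and -2.01 in control arrays. Prefrontal and amygdala arrays stood apart from all others at both ends.

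Probe set 1418188_a_at repeated this order. In the amygdala it was at -1.38 relative to the others (SE 0.085, limma adjusted p = 1.7e-10), with -1.47 in CMS arrays and -1.29 in control arrays. Prefrontally it was at 1.27 (SE 0.085, limma adjusted p = 8.2e-10), with 1.02 and 1.52, although CMS prefrontal arrays overlapped those of CMS hippocampus. These prefrontal calls were not shared by the other Malat1 probe sets. Of them, 1418189_s_at was lower there, at -0.81 (SE 0.039, limma adjusted p = 9.9e-12), with -1.45 in CMS arrays and -0.18 in control arrays. The remaining Malat1 probe sets were between -0.43 and 0.16 prefrontally. The hippocampal call was 1418189_s_at, at 1.19 (SE 0.039, limma adjusted p = 1.4e-14), and its difference was 1.58 in CMS arrays and 0.81 in control arrays.

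Rian had 3 calls, all in cortical areas. Probe set 1427580_a_at was lower in the prefrontal cortex, at -1.10 relative to the others (SE 0.041, limma adjusted p = 3.0e-13), and 1428055_at, the scattered one, was higher there by 1.27 (SE 0.22, limma adjusted p = 0.00013). In the cerebral cortex 1452899_at was at -1.01 (SE 0.039, limma adjusted p = 3.6e-13), with -0.999 in CMS arrays and -1.01 in control arrays. That call was lost for size without hippocampus CMS array 3, hippocampus control array 1, prefrontal CMS array 2, prefrontal control array 1, cerebral cortex CMS array 1 or 3, or cerebral cortex control array 2, so 17 of the 24 fits kept it. Miat 1455325_at was the remaining call, lower in the amygdala at -1.02 (SE 0.029, limma adjusted p = 3.4e-15), and all arrays of that area lay below those of the others. Neat1, Meg3 and Snhg11 had no call, although Meg3 1428764_at passed as lower in the amygdala in 12 of the 24 fits with 1 array left out. At an unadjusted limma p under 0.05 and any size, the amygdala had 7 of the 28 higher and 16 lower and the hippocampus 16 and 9. In the prefrontal cortex these were 11 and 10, and in the cerebral cortex 12 and 11.

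Within 1 treatment the differences between areas hold the difference between CMS and control as well, and are given without p-values. In CMS arrays 2 of the 28 passed the same thresholds in the amygdala, both lower, beside 4.03% of all probe sets in either direction. The CMS hippocampus had 4 higher (5.64%), the CMS prefrontal cortex 2 higher and 2 lower (2.35%), and the CMS cerebral cortex 1 lower (3.05%). In control arrays the amygdala had 2 higher and 4 lower (3.23%), the prefrontal cortex 3 higher (2.31%), the cerebral cortex 1 lower (3.16%) and the hippocampus 0 (4.47%), there with 9 higher and 10 lower at an unadjusted limma p under 0.05 and any size. Nothing is read from these counts. Rian 1452899_at stood at 0.32 relative to the other areas in the CMS amygdala and at 1.51 in the control amygdala, and 1427580_a_at at 0.06 and 1.18. In the hippocampus 1452899_at was at 1.30 in CMS arrays and 0.09 in control arrays. Meg3 1428764_at was the lowest Meg3 probe set in the amygdala relative to the others, at -0.94 in CMS arrays and -1.06 in control arrays, and 1429257_at and 1436057_at were also lower there, at -0.69 and -0.64 in CMS arrays and -0.60 and -0.55 in control arrays. Hippocampal differences of Meg3 1428764_at, Malat1 1418189_s_at and Malat1 1452378_at were 1.01, 1.58 and 1.34 in CMS arrays and 0.67, 0.81 and 0.31 in control arrays.

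**Figure D5:**
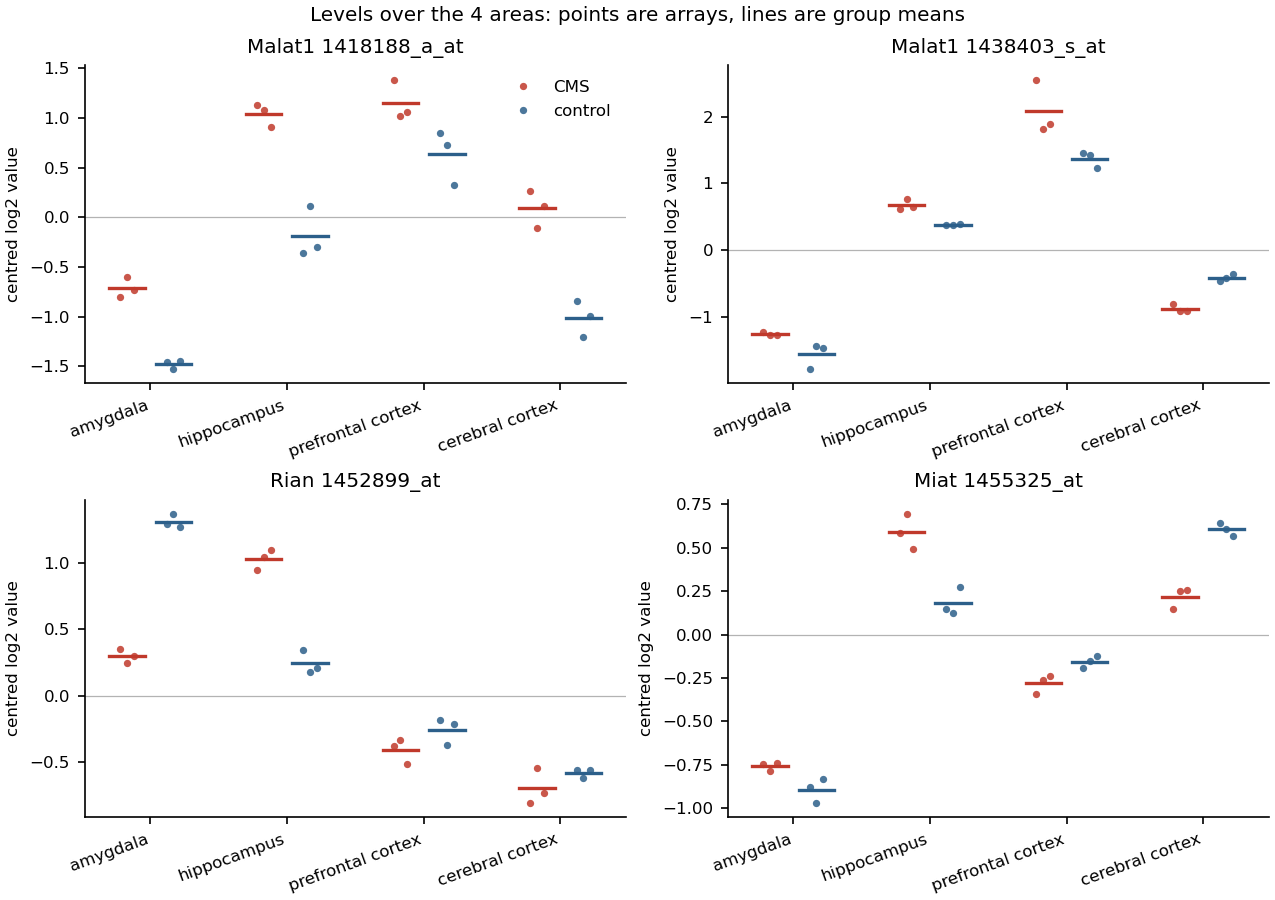
Centred log2 values over 4 areas (x axis) of 2 Malat1 probe sets, 1 of Rian and 1 of Miat (panels), CMS arrays in red to the left of control arrays in blue, 1 point per array with lines at group means. Malat1 is lowest in the amygdala and highest in the prefrontal cortex on 1438403_s_at, and Rian is highest in the amygdala of control mice but in the hippocampus of CMS mice.

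Ordered by gene mean, Malat1 ran from the amygdala (-0.25 ± 0.04) over cerebral cortex (0.20 ± 0.02) and prefrontal cortex (0.33 ± 0.07) to hippocampus (0.76 ± 0.03) in CMS arrays, with no overlap of neighbours. In control arrays the order was amygdala (-0.71 ± 0.07), cerebral cortex (-0.14 ± 0.02), hippocampus (-0.04 ± 0.01) and prefrontal cortex (0.17 ± 0.02) (SD, n = 3 for each of these values). By this mean the hippocampus was thus the highest area in CMS mice, whereas the prefrontal cortex was the highest in control mice. By single Malat1 probe sets the control prefrontal level was 1.37 on 1438403_s_at and 0.63 on 1418188_a_at. On the others it was between -0.47 and 0.03. Rian was highest in the CMS hippocampus (0.52 ± 0.10) and, among control groups, in the amygdala (0.44 ± 0.04). Its next control groups, prefrontal cortex (0.16 ± 0.18) and hippocampus (0.09 ± 0.09), did not differ beyond their spread.

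Miat ran from amygdala (-0.42 ± 0.09) over prefrontal cortex (-0.20 ± 0.13) and cerebral cortex (0.12 ± 0.05) to hippocampus (0.67 ± 0.30) in CMS arrays. In control arrays the cerebral cortex was highest (0.30 ± 0.03). For Meg3 the range of area means was -0.11 to 0.33 in CMS arrays and -0.25 to 0.12 in control arrays, and control amygdala (-0.25 ± 0.01) and control hippocampus (-0.22 ± 0.05) overlapped. Neat1 ranged from -0.18 to 0.17 and from -0.09 to 0.10. Its areas did not overlap in CMS arrays. In control arrays cerebral cortex, prefrontal cortex and amygdala overlapped, and the hippocampus lay above them. Snhg11 was lowest in the control hippocampus (-0.32 ± 0.11), with CMS means between -0.02 and 0.14 and its other control means between -0.01 and 0.13 (SD, n = 3 for each).

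The genes whose pattern was most like each of the 6 were sought over the 24 arrays, after the mean of each area had been taken off, so that what is left is the difference between treatments and the spread of replicates. For Malat1 these were Cdc40 (r = 0.93), D5Ertd579e (0.93) and Tnik (0.91). For Meg3 they were Zic1 (0.94), Ptpn5 (0.93) and Rere (0.92), for Rian Zcchc12 (0.88), Ttc3 and Vamp1, for Miat 4931413K12Rik (0.84), Zmynd8 and Zfy2, for Snhg11 Srgap3 (0.85), Cacng7 and Tcf7l2, and for Neat1 Pde7b (0.74), Aldh1a2 and Asxl1. Zic1 and Tcf7l2 also belong to the thalamus and habenula markers given above, with 8 of 9 called higher in the CMS hippocampus. Among the 6 the closest pair was Malat1 with Meg3 (0.86), followed by Meg3 with Snhg11 (0.76) and Meg3 with Miat (0.73). The 2 RNAs of the imprinted region, Meg3 and Rian, had 0.58, and the 2 neighbours on chromosome 19, Malat1 and Neat1, 0.46. These are descriptions over arrays that share their groups, and carry no p-value.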

How the data were processed

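Affymetrix whole-genome mouse arrays of 24 samples were used, 3 for each of 8 groups by the labels. Per the methods and the submitters' processing notes, the authors normalized the arrays with GCRMA in GeneSpring, and the deposited log2 values have a median of 0 in every probe set over the 24 arrays, so no absolute level or background call remains. RNA is given as pooled in one place and as independent mice in another, and cRNA was made in 2 cycles of labelling. The baseline used by the authors for centring was taken as this median. Signal over background could not be read, and the number of arrays limits the precision.

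Of 45101 probe sets, 64 Affymetrix controls were left out and 45037 were tested. By GEO's platform annotation, which can be old, 34945 had 1 symbol, 932 several and 9160 none. Genes (18193) were means of their probe sets with 1 symbol. CMS was set against control in each area over its 6 arrays, and each area against the mean of the other three within 12 CMS or 12 control arrays and, chosen after the data were seen, over all 24 with both treatments averaged, with limma 3.58.1 in R 4.3.3 (lmFit and eBayes) and Benjamini-Hochberg adjustment over all probe sets or genes. The thresholds were 0.05 and, as in the methods, 2-fold. The script was tested on simulated data. Motifs were searched as letters in RefSeq promoter windows of GRCm38.p6.

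The 6 genes and all gene lists were chosen with earlier results of these data known. Named were all probe sets of the 6 genes, Dlk1 and Mirg, for the other noncoding RNAs those past both thresholds or else the 2 largest changes in each area, for speckle and paraspeckle lists the 2 largest among those with an adjusted p under 0.05, and the 3 genes with the highest r to each of the 6. Alternatives were quantile normalization, median centring, array weights, limma's trend and robust options, a filter on variation, a replicate block, each array left out, a fit of all 24 arrays, a t-test for each probe set, and genes in place of probe sets.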

Additional observations from a re-analysis of the deposited data

Results flagged for a closer look

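Several probe sets moved in opposite directions with CMS in different areas, with all 3 CMS arrays beyond all 3 control arrays in each. Such separation was common among all probe sets. CMS arrays lay wholly above control arrays for 46.4% in amygdala, 8.67% in hippocampus, 39.6% in prefrontal cortex and 12.6% in cerebral cortex. They lay wholly below for 12.7%, 51.9%, 9.80% and 42.9% in the same order. The probe sets given here are examples, and other probe sets of the same genes turned sign in this way too. Malat1 1452378_at had a hippocampal difference (CMS minus control) of 1.07 and a prefrontal one of -0.22. The prefrontal difference was not called by limma, and its nearest arrays were at -0.12 (CMS) and -0.11 (control). Meg3 1428764_at was higher by 0.63 in amygdala, 0.79 in hippocampus and 1.38 in cerebral cortex, and its prefrontal difference was -0.64. Rian 1452899_at was at 0.78 in the hippocampus and -1.01 in the amygdala. These differences between areas were not tested.

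The Actb probe sets that the array carries as controls, which entered no comparison, were higher in CMS arrays in every area without overlap. Their mean difference was 0.82 for amygdala, 0.17 for hippocampus, 0.21 for prefrontal cortex and 1.29 for cerebral cortex.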

How the results depend on the processing

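No pairing of the samples by replicate number was seen. Deviations of CMS and control arrays with the same number correlated between -0.058 and 0.013 over 12 pairs. Between areas they correlated from -0.074 to 0.026 in CMS arrays and from -0.23 to 0.11 in control arrays, over 18 pairs each. Whether the areas came from the same mice is not settled by these values. With the numbers as a replicate block, which also removes degrees of freedom, higher calls among the 28 probe sets went to 5 in the amygdala (10 without it) and 4 in the hippocampus (23), of which 1 over 2-fold (3), and lower calls to 0 prefrontally (4) and 2 in the cerebral cortex (9). The block changed no other count by more than 1.5 times.

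With no fold threshold amygdala had 10 higher and 3 lower calls, with 23 higher for hippocampus, 4 lower for prefrontal cortex, and 6 higher and 9 lower in the cerebral cortex. In the hippocampus, higher calls over 2-fold fell to 1 after quantile normalization, and array weights gave 1 lower call. Its median difference of 0.52 became 0.43 after quantile normalization, 0.56 after median centring, 0.54 without the less variable probe sets and 0.49 over genes. In the prefrontal cortex higher calls were 1 with quantile normalization, 6 with array weights and 2 in the fit of all arrays, and lower calls 2 with median centring, 1 with the trend and robust options, 10 with array weights (1 over 2-fold) and 0 by the t-test for each probe set. The median there, -0.11, became -0.18 with quantile normalization and -0.052 with array weights. In the cerebral cortex lower calls were 5 with the trend and robust options and 4 by the t-test, and the median of -0.06 became -0.036 with median centring, -0.025 without the less variable probe sets and, reversed in sign, 0.084 over genes. Against the other areas in control arrays, quantile normalization added 1 higher call in the hippocampus and 1 lower call in the prefrontal cortex. The mean over CMS and control arrays, chosen after the data were seen, gave 0 higher in the amygdala (2 in control arrays alone), 1 higher in the hippocampus (0) and 1 lower in the prefrontal cortex (0). With each of the 24 arrays left out of that fit, lower calls were 3 to 4 in the amygdala and 0 to 1 in the cerebral cortex, and the counts of 1 higher in the hippocampus and 3 higher and 1 lower in the prefrontal cortex did not move. The causes were not tested.

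With each array left out in turn, higher calls ranged from 6 to 11 in the amygdala and from 16 to 23 in the hippocampus, with 2 to 3 over 2-fold. Lower calls ranged from 2 to 4 in the amygdala, with 0 to 2 over 2-fold, from 0 to 1 in the prefrontal cortex and from 4 to 8 in the cerebral cortex. Medians ranged from 0.15 to 0.21, 0.49 to 0.56, -0.13 to -0.083 and -0.075 to -0.032 in amygdala, hippocampus, prefrontal cortex and cerebral cortex. Lower calls of the cerebral cortex against the other areas in control arrays ranged from 0 to 1.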
